A study of Homo sapiens with 18 samples.

Results

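The genes described here are those of the integrin and laminin families, followed through neural differentiation of the human embryonic stem (ES) cell line H9. They were taken by symbol (ITGA, ITGB, LAMA, LAMB and LAMC genes) from the array's annotation, which gave 35 of the 19775 genes measured: 18 integrin alpha chains, 7 integrin beta chains and 10 laminin chains. Each gene is read by 1 probe set that names no other gene, and where there were several (25 of the 35 genes) by the one with the highest mean signal. A total of 18 arrays covered 6 groups of 3 RNA pools. The groups were ES cells, embryoid bodies (aggregates grown in suspension) at day 6, and neuroepithelium at day 10 and at day 17, each grown with or without basic fibroblast growth factor (bFGF) from day 6. For bFGF the stated dose is 20 ng/ml in day 17 cultures but 20 ug/ml in day 10 cultures, and the true day 10 dose is unsettled. All groups come from H9, so no other line was compared. Each ES and day 6 pool joined 3 passages between 24 and 31, and the labels give no passages for the neuroepithelial pools. Day 6 pools 1 and 2 list the same passages as ES pool 1 (27, 28 and 31), while ES pool 2 lists 24, 25 and 26. Nothing states that the 3 pools of a group were separate differentiations, so the p-values measure the spread between these pools, which may be technical.

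Integrins are cell surface receptors made of 1 alpha and 1 beta chain. They bind matrix proteins outside the cell and couple to actin inside it through talin, kindlin and other adaptors. ITGB1 pairs with most alpha chains, while ITGAV pairs with several beta chains, among them ITGB1, ITGB3, ITGB5 and ITGB8. Laminins are trimers of an alpha, a beta and a gamma chain, and LAMC1 is the gamma chain of most of them. They build the basement membrane on which the neuroepithelium rests. Human ES cells are known to attach to laminin largely through the dimer of ITGA6 with ITGB1, and to vitronectin through that of ITGAV with ITGB5.

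The promoters of ITGAV, ITGA6, ITGB1 and LAMC1 are shown because these 4 genes passed the test in bFGF-treated day 10 cells against day 6, ITGA6 lower and the other 3 higher, and stood among the highest signals. Each window is the 250 bases before the start in RefSeq's promoter table (GRCh38.p14). Capitals mark matches on either strand to any of 5 motifs, spelled out after the sequences, and no marked match overlaps another.
ITGAV (chr2:186589806-186590055, plus strand): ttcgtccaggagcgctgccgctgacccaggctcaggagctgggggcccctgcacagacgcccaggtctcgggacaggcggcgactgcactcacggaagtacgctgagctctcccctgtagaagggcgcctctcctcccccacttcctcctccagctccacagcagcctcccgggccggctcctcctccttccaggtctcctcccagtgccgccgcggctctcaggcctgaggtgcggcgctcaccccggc
ITGA6 (chr2:172427086-172427335, plus strand): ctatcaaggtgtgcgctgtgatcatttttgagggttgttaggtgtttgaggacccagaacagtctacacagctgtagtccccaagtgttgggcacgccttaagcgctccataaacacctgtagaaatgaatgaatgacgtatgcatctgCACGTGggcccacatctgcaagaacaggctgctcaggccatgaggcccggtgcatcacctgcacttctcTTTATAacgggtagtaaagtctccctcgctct
ITGB1 (chr10:32958231-32958480, minus strand): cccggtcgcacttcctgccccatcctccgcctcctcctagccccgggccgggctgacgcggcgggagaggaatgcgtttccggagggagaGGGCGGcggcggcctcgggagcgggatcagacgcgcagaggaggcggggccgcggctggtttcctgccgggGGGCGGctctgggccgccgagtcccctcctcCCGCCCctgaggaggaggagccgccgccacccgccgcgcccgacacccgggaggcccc
LAMC1 (chr1:183023170-183023419, plus strand): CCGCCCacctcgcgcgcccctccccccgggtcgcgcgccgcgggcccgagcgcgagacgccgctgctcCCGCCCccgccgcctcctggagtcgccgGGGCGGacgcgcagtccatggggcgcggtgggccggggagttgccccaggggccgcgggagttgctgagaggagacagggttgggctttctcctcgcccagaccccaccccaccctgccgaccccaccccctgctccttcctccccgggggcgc
ITGAV held 18 CpG dinucleotides and no match to these motifs in this window. ITGA6 held 8 CpG dinucleotides, 1 E-box and 1 TATA box. ITGB1 and LAMC1 each held 32 CpG dinucleotides and 3 GC boxes. Of the 35 genes, 24 matched the promoter table, and 12 of these 24 (50%) held a GC box, spelled GGGCGG, against 42.6% of the 35116 promoters in the table. The E-box searched for was CACGTG, which stood in 1 of the 24 (4.17%) and 6.34% of all promoters. The TATA box was read as TATAAA and stood in 1 of the 24 (4.17%) and 10.7% of all. A match to CCAAT, the box of that name, was present in 4 of the 24 (16.7%) and 32% of all, and the AP-1 site, written with any base in its middle as TGANTCA, in 0 of the 24 and 6.57% of all. A match is a run of letters and not a measured binding site.

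The deposited signals, which are linear intensities, had been scaled, since their 2% trimmed means lay between 150.016 and 150.026. Pool 2 of the 4 neuroepithelial groups stood apart, with median signals of 48.7 to 50.8 against 25.2 to 32.7 on the other 14 arrays, so that low signals were raised there. Pool 2 of all 6 groups also had higher 3' to 5' ratios of ACTB, a measure of RNA integrity (2.27 to 2.64, against 1.17 to 1.75 in pools 1 and 3). The same ratio of GAPDH did not share this. It was 0.876 to 1.24 on all 18 arrays and lowest in pool 2 within each group. The marker lists followed the labels: the 7 measured pluripotency genes were all lower and the 8 neuroepithelial genes all higher in untreated day 17 cells than in ES cells. As the RNA came from whole cultures, more cells of a type and more RNA per cell cannot be told apart.

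Of the 35 genes, 15 had a mean signal of at least 100 in some group and 20 in none. The 15 were ITGA1, ITGA2, ITGA5, ITGA6, ITGA7, ITGAE, ITGAV, ITGB1, ITGB5, ITGB8, LAMA1, LAMA5, LAMB1, LAMB2 and LAMC1. No detection calls were used here, so each array's median signal over genes (54.3 to 80.3) served as a guide: 11 of the 35 genes lay above it on all 18 arrays, 10 on none and 14 on some. ITGAD, ITGAL, ITGAM, ITGAX and ITGB2, which form the ITGB2 integrins of leukocytes, were among the 10, as was ITGB7. Other chains found on leukocytes differed: ITGAE lay above the median on all 18 arrays and ITGA4 on 3. An F test over the 6 groups (limma, Benjamini-Hochberg adjusted p under 0.05 over all 19775 genes) called 11 of the 35 genes, against 19.3% of all genes. These were ITGA1, ITGA2, ITGA5, ITGA6, ITGA8, ITGA11, ITGAV, ITGB1, ITGB5, ITGB8 and LAMC1. LAMA1 lay just outside (adjusted p = 0.0514).

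**Figure D1:**
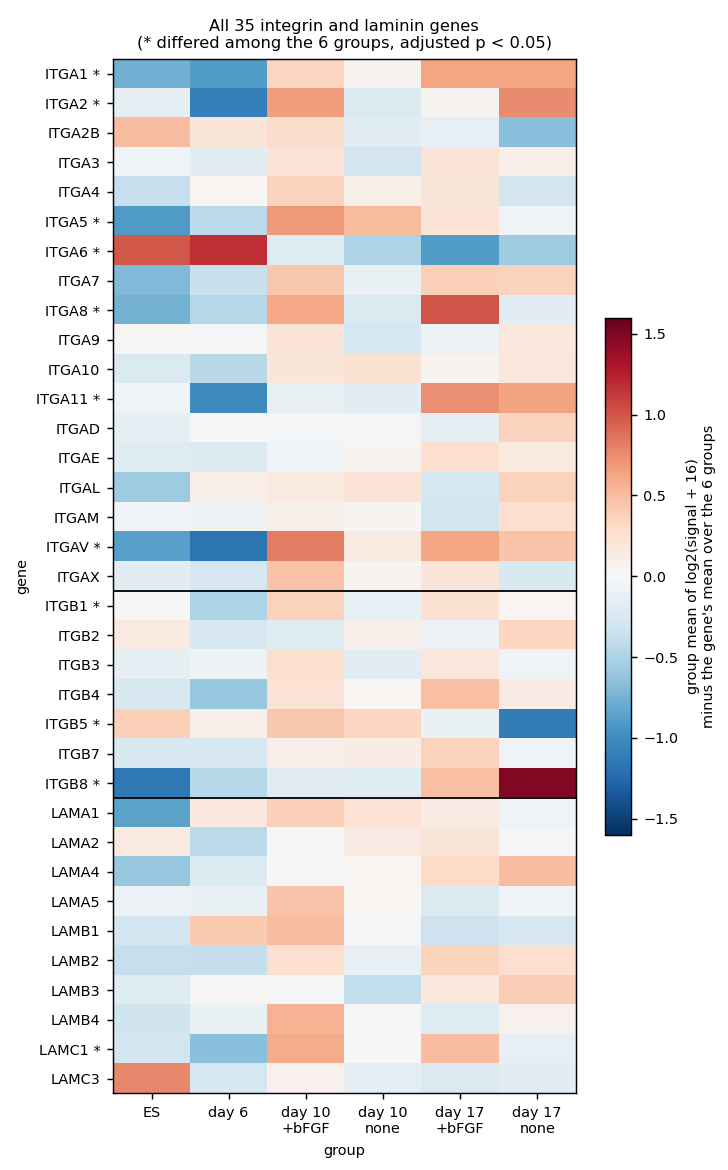
Group means of log2(signal + 16) for the 35 integrin and laminin genes, each minus the gene's own mean over the 6 groups (colour scale in log2 units), with alpha chains on top, beta chains in the middle and laminins at the bottom. Red is above and blue below the gene's own mean, and a star marks the 11 genes that differed among the groups; ITGA6 was red in ES cells and at day 6, and ITGB8 was darkest in untreated day 17 cells.

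Day 10 cells grown with bFGF had the highest group mean for 15 of the 35 genes, while 13.1% of all genes peaked in that group. Day 6 embryoid bodies had the lowest group mean for 15 of the 35 (22.9% of all genes), and ES cells for 10 (29% of all genes). The remaining lowest means fell in untreated day 10 cells (4), bFGF-treated day 17 cells (4) and untreated day 17 cells (2), and none in bFGF-treated day 10 cells. These counts are descriptive, because neighbouring groups often did not differ beyond their spread. Genes of low signal enter the counts and shares alike, and low signals were raised in pool 2 of the neuroepithelial groups. ITGAX, for example, read 2.60, 72.1 and 6.47 in bFGF-treated day 10 cells, its highest group.

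ITGB1, the beta chain that most alpha chains share, had its lowest mean at day 6 and its highest in bFGF-treated day 10 cells. Its signals were 3967, 4339 and 3818 in ES cells, 2458, 3229.6 and 3017 at day 6, and 5142, 5573 and 5023 at day 10 with bFGF, against 3555, 4180.0 and 3458 at day 10 without it. At day 17 they were 4902, 5125 and 4461 with bFGF and 3806, 3954 and 4726 without. The 3 day 6 pools lay below every ES pool, and the bFGF-treated day 10 pools lay above every pool of the other groups except 1 bFGF-treated day 17 pool, which lay within their range. Against day 6, ITGB1 rose in bFGF-treated day 10 cells by 0.86 ± 0.17 on the log2 scale (adjusted p = 0.00421). Other comparisons gave values that did not pass: -0.48 ± 0.17 for day 6 over ES cells (adjusted p = 0.170, and 0.0384 with a pseudocount of 64), 0.37 ± 0.17 for untreated day 10 over day 6 (0.269), and 0.04 ± 0.17 for untreated day 17 over ES cells (0.923). For bFGF over none at day 10 the value was 0.49 ± 0.17, higher in all 3 pools with no overlap, and it did not pass (adjusted p = 1.00), and at day 17 it was 0.22 ± 0.17. All log2 changes here are on the log2(signal + 16) scale, which understates those of low genes, and errors beside them are standard errors. Errors and p-values for bFGF over none, for each gene described, leave out the pairing of pools by number. A replicate block, which uses that pairing, changed no integrin or laminin call for bFGF at day 10 or at day 17.

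LAMC1, the gamma chain that most laminins share, also had its lowest mean at day 6 and its highest in bFGF-treated day 10 cells. Signals were 1098, 1667 and 1004 in ES cells and 853, 1004 and 969.7 at day 6. At day 10 they were 2450.4, 2089 and 2318 with bFGF, against 1525, 1586 and 1373 without, and at day 17 they were 2319, 2143 and 1937 with bFGF, against 1551, 964 and 1713 without. The treated pools lay above the untreated ones at both days with no overlap. LAMC1 rose in bFGF-treated day 10 cells against day 6 (1.26 ± 0.23, adjusted p = 0.00196, means 2286 ± 183 and 942 ± 79.3, SD, n = 3 each). The second LAMC1 probe set, with a mean signal of 293, gave 0.73 for that step and did not pass among all probe sets (adjusted p = 0.193). For bFGF over none, LAMC1 gave 0.61 ± 0.23 at day 10 and 0.63 ± 0.23 at day 17, higher in all 3 pools of each day, and neither passed (adjusted p = 1.00 and 0.662).

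ITGAV, the alpha chain of receptors for vitronectin, fibronectin and latent TGF-beta, had the smallest F-test p of the 35 genes and was higher in neuroepithelium. It read 936, 1140.4 and 803 in ES cells and 649, 929 and 753 at day 6. At day 10 it read 2606, 3403 and 3297 with bFGF, against 1604, 2302 and 1945 without, and at day 17 it read 2577, 3227 and 2378 with bFGF, against 2096, 2889.9 and 2286 without. Every neuroepithelial pool lay above every ES and day 6 pool. ITGAV rose in untreated day 10 cells against day 6 (1.31 ± 0.22, adjusted p = 0.00114), in bFGF-treated day 10 cells against day 6 (1.98 ± 0.22, adjusted p = 2.26e-05) and in untreated day 17 cells against ES cells (1.32 ± 0.22, adjusted p = 0.000316). Each of these calls held without any single array. At day 10 the treated pools all lay above the untreated ones, with values of 0.69, 0.56 and 0.76 within pools 1, 2 and 3, but the difference of 0.67 ± 0.22 did not pass (adjusted p = 1.00). At day 17 the groups overlapped (0.17 ± 0.22).

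ITGB5, a beta chain that pairs with ITGAV to bind vitronectin, was lowest in untreated day 17 cells. It read 761, 917 and 692 in ES cells, 705, 684 and 532 at day 6, and 809.9, 855 and 776 with bFGF at day 10, against 721, 851 and 719.7 without. At day 17 it read 602, 546 and 521 with bFGF, against 267, 263 and 277 without. The 3 untreated day 17 pools lay close together and below all 15 other arrays. ITGB5 fell in untreated day 17 cells against untreated day 10 cells (-1.45 ± 0.17, adjusted p = 0.000231) and against ES cells (-1.49 ± 0.17, adjusted p = 8.50e-06). With the compared groups fitted alone the first of these did not pass (adjusted p = 0.0620). At day 17 it was higher with bFGF than without (557 ± 41.5 and 269 ± 7.31, SD, n = 3 each; 1.00 ± 0.17, adjusted p = 0.0151), by 1.13, 1.01 and 0.88 within pools 1, 2 and 3. The bFGF call was lost when the compared groups were fitted alone (adjusted p = 0.338), without the 4 arrays with raised low signals (0.156), without pool 2 (0.199), and without any of 5 single arrays, bFGF-treated pools 1 and 2 and untreated pools 1, 2 and 3 of day 17 (0.0554 to 0.105), while the value stayed between 0.95 and 1.05. In bFGF-treated cells the step between day 10 and day 17 was -0.54 ± 0.17 and did not pass (adjusted p = 0.246). The difference of the bFGF effects between the days was 0.91 ± 0.24 and did not pass either (adjusted p = 0.800).

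The probe sets of ITGB5 differed in part. A second one, with a mean signal of 187, also fell between untreated day 10 and day 17 (-1.28, adjusted p = 0.00683 among all probe sets). It gave -0.48 for untreated day 17 over ES cells and 0.66 for bFGF at day 17, neither of which passed. Between day 6 and untreated day 10 it rose by 1.04 (adjusted p = 0.0105), where the probe set used gave 0.26 ± 0.17. The fall between untreated day 10 and day 17 passed on both of these. ITGB5 has 4 probe sets in all, and these 2 are the ones not set aside as prone to cross-hybridisation. Values of the others are not given here.

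ITGB8, which pairs only with ITGAV and activates latent TGF-beta, had its highest mean in untreated day 17 cells, where ITGB5 had its lowest. Its signals were 185, 290.3 and 77.9 in ES cells, 279, 316 and 233 at day 6, and 324, 367 and 325 with bFGF at day 10, against 336, 421 and 259 without. At day 17 they were 600.0, 865 and 297 with bFGF, against 1124, 1328 and 874 without. The untreated day 17 pools lay above every other array, while the bFGF-treated day 17 pools, at 297 to 865, overlapped the day 10 pools. ITGB8 rose in untreated day 17 cells against ES cells (1109 ± 228 and 184 ± 106, SD, n = 3 each; 2.63 ± 0.39, adjusted p = 0.000103), a call that held without any single array. The rise over untreated day 10 cells was 1.67 ± 0.39 (adjusted p = 0.0331), with 1.70, 1.62 and 1.69 within pools 1, 2 and 3. It was no longer called with a pseudocount of 1 (adjusted p = 0.0873), with the compared groups alone (0.0856), among all probe sets (0.0574), without the 4 arrays with raised low signals (0.109), without pool 2 (0.0806), or without any of 5 single arrays, untreated day 10 pools 1 and 3 and untreated day 17 pools 1, 2 and 3 (0.0583 to 0.157). The mean of its probe sets gave 0.88 (0.0661), and the other 4 probe sets, with mean signals of 8.05 to 43.0, gave 0.02 to 1.01 and did not pass. With bFGF at day 17 ITGB8 was lower in all 3 pools (-1.002 ± 0.39), and this did not pass (adjusted p = 0.758).

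**Figure D2:**
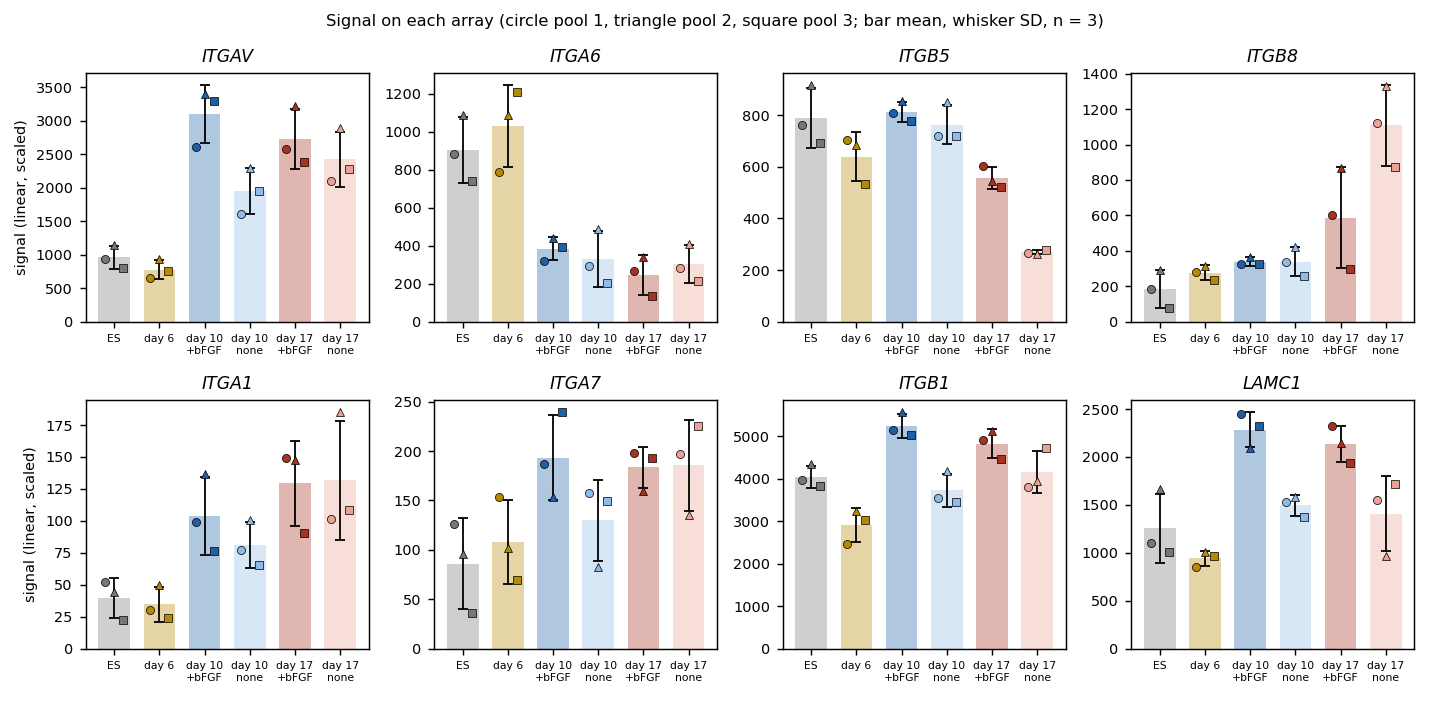
Signal (linear, scaled) on each array for 8 integrin and laminin genes in the 6 groups, from ES cells to day 17, with bFGF-treated cells left of untreated cells at each day. Points are pools, bars are means and whiskers are SD (n = 3); ITGAV lay higher in all 4 neuroepithelial groups, ITGA6 lower, and in untreated day 17 cells ITGB5 read 263 to 277 and ITGB8 874 to 1328.

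ITGA6, the main laminin-binding alpha chain of ES cells, was lower in neuroepithelium, whether bFGF was added or not. Its signals were 882, 1089 and 742 in ES cells and 790.1, 1089.6 and 1209.6 at day 6. They were 318, 439 and 392 with bFGF at day 10, against 295, 490.3 and 204 without, and 267, 340.2 and 134 with bFGF at day 17, against 284, 409.5 and 215 without. All 12 neuroepithelial pools lay below all 6 ES and day 6 pools. ITGA6 fell in untreated day 10 cells against day 6 (-1.66 ± 0.35, adjusted p = 0.00654), in bFGF-treated day 10 cells against day 6 (-1.38 ± 0.35, adjusted p = 0.0212) and in untreated day 17 cells against ES cells (-1.56 ± 0.35, adjusted p = 0.00348). The call in bFGF-treated cells was lost without either of 2 day 6 pools (pools 2 and 3, adjusted p = 0.0739 and 0.0963) or either of 2 treated pools (pools 1 and 3, 0.0843 and 0.0612), with values of -1.25 to -1.56 over all single omissions. A second ITGA6 probe set passed in the same 3 steps (-1.79, -1.53 and -1.86). Treated and untreated cells overlapped at both days.

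ITGA7, another laminin-binding alpha chain, best known from muscle, read 126, 96.3 and 35.9 in ES cells and 153, 102 and 69.3 at day 6. At day 10 it read 187, 154 and 239.7 with bFGF, against 158, 82.5 and 149.9 without, and at day 17 it read 198, 159 and 193 with bFGF, against 197, 135 and 225 without. It rose in untreated day 17 cells against ES cells (1.08 ± 0.35, adjusted p = 0.0404), with no overlap between these groups. Without ES pool 3, the lowest array, the value was 0.65 and the call was lost (adjusted p = 0.225). Quantile scaling (0.86, adjusted p = 0.103), averaging its probe sets (0.0728), a fit of all probe sets (0.0532), a pseudocount of 1 (0.0598) and the compared groups alone (0.104) also ended it, as did leaving out untreated day 17 pool 1 (0.108) or 3 (0.137), day 6 pool 2 (0.0511), bFGF-treated day 10 pool 1 (0.0514) or bFGF-treated day 17 pool 1 (0.0510). ITGA3, another laminin-binding alpha chain, had group means of 27.6 to 47.3 and passed in no comparison.

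ITGA1, ITGA2, ITGA10 and ITGA11 are the collagen-binding alpha chains, and ITGA1 was higher in neuroepithelium. It read 52.4, 44.0 and 22.3 in ES cells and 30.1, 49.9 and 24 at day 6. At day 10 it read 98.7, 136 and 76.3 with bFGF, against 76.8, 101 and 65.8 without, and at day 17 it read 149, 148 and 90.5 with bFGF, against 101, 185 and 108 without. All 12 neuroepithelial pools lay above the ES and day 6 pools. ITGA1 rose in untreated day 17 cells against ES cells (1.41 ± 0.30, adjusted p = 0.00252) and in bFGF-treated day 10 cells against day 6 (1.24 ± 0.30, adjusted p = 0.0166). For untreated day 10 over day 6 the value of 0.95 ± 0.30 did not pass in the main fit, with 1 mean per group (adjusted p = 0.0754). It passed in the upper 60% of genes (0.0430) and with either replicate block (0.00319 and 0.00719). The call in bFGF-treated cells ended with quantile scaling (1.02, adjusted p = 0.0562), with the 4 raised arrays left out (1.05, 0.0560), with the mean of its probe sets (0.77, 0.0951) and without day 6 pool 1 (0.0656), day 6 pool 3 (0.0886) or bFGF-treated day 10 pool 2 (0.0873).

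ITGA2, the alpha chain of a collagen and laminin receptor, was chosen for description after its values were seen. It read 119, 186 and 39.0 in ES cells, which spread more than any other group, and 36.5, 56.7 and 39.2 at day 6. At day 10 it read 188, 195 and 176 with bFGF, against 99.4, 110.2 and 69.6 without, and at day 17 it read 139.7, 139 and 76.3 with bFGF, against 212, 171 and 214 without. The treated pools lay above the untreated ones at day 10 and below them at day 17, with no overlap on either day. ITGA2 rose in bFGF-treated day 10 cells against day 6 (1.76 ± 0.36, adjusted p = 0.00476). Neither bFGF effect passed, at 0.91 ± 0.36 for day 10 and -0.71 ± 0.36 for day 17. ITGA11 was low throughout, with signals of 2.96 to 11.3 at day 6, 22.2 to 29.2 in ES cells and 32.0 to 81.6 at day 17. It differed among the 6 groups in the F test (adjusted p = 0.00175), and no single step passed in the main fit. With a pseudocount of 1, day 6 over ES cells (-2.12, adjusted p = 0.0219) and untreated day 10 over day 6 (1.94, 0.0275) passed. Day 6 over ES cells also passed without the 4 arrays with raised low signals (-0.95, 0.0394). Untreated day 17 over ES cells passed without untreated day 17 pool 3 (0.97, 0.0314). Steps also passed with a replicate block.

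ITGA5, ITGA8, ITGA11, ITGAE, LAMA1 and LAMB1 were likewise chosen after their values were seen. ITGA5, the fibronectin-binding partner of ITGB1, read 74.0 to 108 in ES cells and 95.6 to 200.4 at day 6. At day 10 it read 187 to 433 with bFGF, against 198 to 360.0 without, and at day 17 138 to 257 with bFGF, against 144 to 237 without. It differed among the groups (F test, adjusted p = 0.0172). In the main fit its steps did not pass: 0.93 ± 0.34 for untreated day 10 over day 6 (adjusted p = 0.142) and 0.85 ± 0.34 for untreated day 17 over ES cells (0.0985). Both passed with a replicate block, and with a term for the 4 arrays with raised low signals (1.15, adjusted p = 0.0120, and 1.07, 0.00732). Without those arrays the second step passed too (0.95, 0.0489). ITGA8, which pairs with ITGB1 and binds nephronectin, was near the low end of the scale, with 48.5 to 121 at day 17 with bFGF, against 9.29 to 47.3 without. The groups did not overlap, and the difference of 1.19 ± 0.42 did not pass (adjusted p = 0.653). ITGAE, the alpha chain of a leukocyte receptor for E-cadherin, read 957 to 1604 on the 18 arrays and passed in no comparison, while ITGB7, its beta chain, read 2.09 to 43.1.

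Among the laminins, LAMA1 and LAMB1, which with LAMC1 form the laminin of the earliest embryonic basement membranes, did not pass in any step in the main fit. LAMA1 read 323, 359.5 and 227 in ES cells and 673, 692 and 539 at day 6, with no overlap (day 6 over ES cells 1.04 ± 0.30, adjusted p = 0.0689). That rise passed with either replicate block (0.0116 and 0.0120), in the upper 60% of genes (0.0382) and with a trended robust prior (0.0411). It also passed with the 4 arrays with raised low signals left out (0.0386) or as a term (0.0129). For untreated day 17 over ES cells LAMA1 (0.79) passed with either block, in the upper 60% of genes (0.0454) and without pool 2 (1.10, 0.0402). The same held with the 4 arrays left out (0.0330) or as a term (0.00718). Later groups ran from 405 to 959. LAMB1 read 661, 744 and 374 in ES cells and 917, 1104 and 871 at day 6, again with no overlap (0.74 ± 0.27, adjusted p = 0.187). At day 10 LAMB1 read 978, 974 and 1079 with bFGF, against 814, 808 and 524 without. By day 17 it ran from 434 to 752 with bFGF, against 522 to 696 without, and the groups overlapped.

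LAMA4, the alpha chain of laminins in vessel walls and around muscle and fat cells, was the laminin chain called between ES cells and untreated day 17 cells, and was described after its values were seen. It rose in untreated day 17 cells (38.3, 84.7 and 32.8) against ES cells (12.3, 19.6 and 10.9), by 1.10 ± 0.31 (adjusted p = 0.0163). These are low signals, and pool 2 at day 17 is an array with raised low signals. Without that array the value was 0.78 (adjusted p = 0.0979), without pool 2 of all groups 0.90 (0.0611), without ES pool 1 1.06 (0.0533) and without ES pool 3 1.02 (0.0624), and the mean of LAMA4's probe sets gave 0.34 (0.342). LAMA5, an alpha chain of epithelial basement membranes, read 92.6 to 316 on the 18 arrays, and LAMB2 59.3 to 211. Neither passed in any comparison. LAMA2, LAMB3, LAMB4 and LAMC3 had group means of 4.79 to 75.6 and passed in none.

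Day 6 embryoid bodies against ES cells gave no call among the 35 genes (limma), while 3.85% of all genes were called (2.19% higher, 1.66% lower). At an unadjusted p under 0.05, 2 of the 35 were higher and 4 lower, against 13% of all genes in either direction, and with the other settings tried up to 2 of the 35 were called. The groups did not overlap for 8 of the 35 genes (3 higher, 5 lower), against 19.8% of all genes. The median log2 change of the 35 genes was -0.03, against -0.00 for all genes.

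Untreated day 10 cells against day 6 gave 2 calls among the 35 genes, ITGAV higher and ITGA6 lower, while 6.37% of all genes were called (3.73% higher, 2.64% lower). Groups did not overlap for 13 of the 35 (11 higher, 2 lower), against 23.2% of all genes. The median log2 change was 0.26 for the 35 genes and 0.09 for all genes, and 27 of the 35 had a value above 0, against 58% of all genes. Raised low signals in day 10 pool 2 enter these values. Without the 4 arrays with raised low signals the median of all genes was 0.05, and that of the 35 genes is not given here. In bFGF-treated day 10 cells against day 6, a comparison added after the data had been seen, 6 of the 35 genes were called: ITGA1, ITGA2, ITGAV, ITGB1 and LAMC1 higher and ITGA6 lower. There 7.05% of all genes were called (4.29% higher, 2.76% lower). The groups did not overlap for 14 of the 35 genes (13 higher, 1 lower), against 27.1% of all genes. These comparisons share the day 6 arrays, so their values stand side by side and are not independent.

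Between day 10 and day 17 in untreated cells 2 of the 35 genes were called, ITGB8 higher and ITGB5 lower, while 1.99% of all genes were called (1.45% higher, 0.536% lower). Groups were apart for 5 of the 35 (4 higher, 1 lower), against 13.6% of all genes. In bFGF-treated cells, a step also added after the data had been seen, none of the 35 was called by limma (1.05% of all genes, 0.662% higher and 0.389% lower), and 4 had an unadjusted p under 0.05 (7.31% of all genes). Over the whole untreated course, day 17 against ES cells gave 7 calls among the 35 genes, against 20.2% of all genes (11.7% higher, 8.47% lower). The groups did not overlap for 14 of the 35 (10 higher, 4 lower), against 33.6% of all genes. ITGA1, ITGA7, ITGAV, ITGB8 and LAMA4 were higher and ITGA6 and ITGB5 lower. The median log2 change was 0.34 for the 35 genes and 0.09 for all genes, and 29 of the 35 were above 0, against 57.2% of all genes. With quantile scaling the median of all genes moved to -0.03. The median of the 35 genes under that scaling is not given here, so the medians are not compared across scalings.

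bFGF against none at day 10 gave no call among the 35 genes (limma), while 0.0860% of all genes (17 genes) were called (0.0809% higher, 0.00506% lower). At an unadjusted p under 0.05, 4 of the 35 were higher and none was lower, against 3.1% of all genes in either direction. The groups did not overlap for 5 of the 35, all higher with bFGF, against 6.11% of all genes: ITGA2, ITGAV, ITGB1, LAMB1 and LAMC1. The median log2 change was 0.28 for the 35 genes and -0.02 for all genes, and 27 of the 35 were above 0, against 47.3% of all genes. At day 17 ITGB5 was the 1 gene called among the 35, higher with bFGF, while 0.339% of all genes (67 genes) were called (0.182% higher, 0.157% lower). No overlap was seen for 6 of the 35 genes (3 higher, 3 lower), against 9.03% of all genes. Here the median was 0.09 for the 35 genes and -0.01 for all genes, with 19 of the 35 above 0, against 47.8% of all genes.

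The difference of the bFGF effects, day 17 minus day 10, was called for none of the 35 genes and for none of the 19775 (limma). At an unadjusted p under 0.05 there were 2 of the 35, and 631 (3.19%) of all genes. For the bFGF effect averaged over both days, a comparison added after the data had been seen, none of the 35 was called while 65 of all genes (0.329%: 0.228% higher, 0.101% lower) were. ITGB5 (0.55 ± 0.12, adjusted p = 0.0820), LAMC1 (0.62 ± 0.16, 0.200) and ITGA8 (1.01 ± 0.30, 0.349) had the smallest p-values. With the pool number as a fixed replicate block, ITGB5 (adjusted p = 0.0227) and ITGA8 (0.0487) passed there, and with a random replicate block ITGB5 passed (0.0157) and ITGA8 did not.

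**Figure D3:**
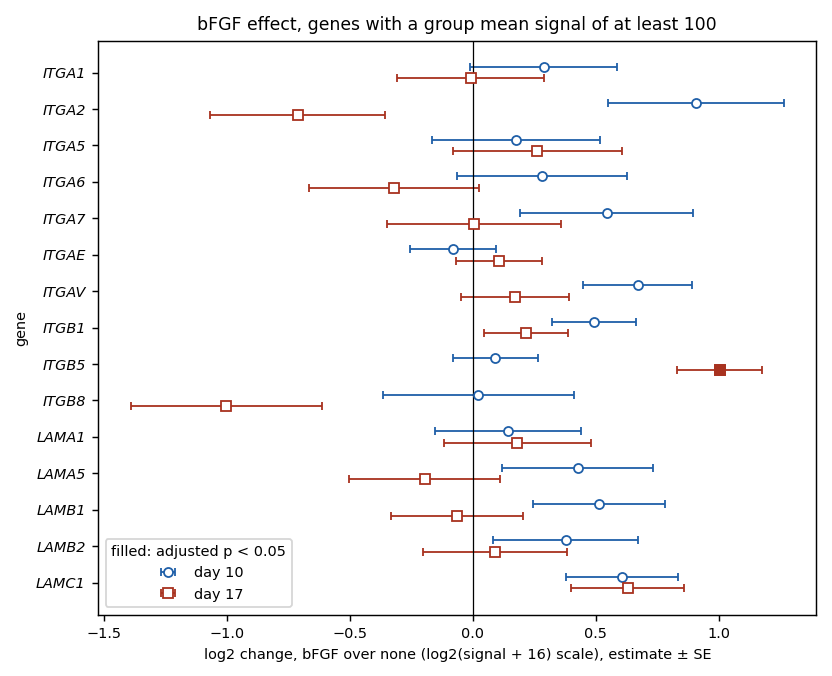
Log2 change, bFGF over none, at day 10 (circles) and day 17 (squares) for the 15 genes with a group mean of at least 100, on the log2(signal + 16) scale, with whiskers of 1 standard error. The filled square is the 1 value past the test, ITGB5 at day 17 (1.00 ± 0.17), and ITGA2 lay at 0.91 on day 10 and -0.71 on day 17.

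The ligands and partners of these receptors were followed in lists. In untreated day 17 cells against ES cells, 11.7% of all genes were called higher and 8.47% lower, with a median log2 change of 0.09. Of 17 basement membrane genes that assemble with laminin, 10 were higher and none lower in untreated day 17 cells than in ES cells, with a median log2 change of 1.30. They included NTN4, a laminin-related netrin (241 ± 46.1 and 14.1 ± 5.47; 3.10), and the collagen IV chains COL4A6 (1765 ± 738 and 253 ± 107; 2.72), COL4A2 (1862 ± 773 and 397 ± 169.5; 2.17) and COL4A5 (1559.8 ± 257 and 386 ± 140.4; 2.03). By day 6, COL4A6 (2.11) and NID2 (1.30) had risen and no gene of this list had fallen (2.19% and 1.66% of all genes). At untreated day 10 against day 6, NTN4 (2.82), NID1, the nidogen that links laminin to collagen IV (1.80), and SPARC, a collagen-binding matrix protein (1.01), rose and FRAS1, a basement membrane protein of epithelia (-1.68), fell. Of all genes, 3.73% rose and 2.64% fell in that step. From untreated day 10 to day 17 SPARC was the gene of this list that rose (0.80), against 1.45% of all genes.

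Integrin ligands other than laminins and collagens passed in both directions. Of 28 measured, 15 were higher and 3 lower in untreated day 17 cells than in ES cells (median log2 change 0.97). Over all genes these shares were 11.7% and 8.47%. FBN2, a fibrillin (2569 ± 536 and 292 ± 131; 3.16), TNC, a tenascin (946 ± 280.4 and 99.1 ± 52.4; 3.12), and VCAM1, a ligand of ITGA4 (263 ± 100.4 and 16.6 ± 13.3; 3.12), rose the most, and EDIL3, a ligand of ITGAV dimers, fell (391 ± 32.4 and 2365 ± 445; -2.53). At day 6 against ES cells 6 rose and 6 fell, against 2.19% and 1.66% of all genes. VWF, or von Willebrand factor (2.69), and FBN2 (2.57) rose, and SPP1, or osteopontin (-2.59), and THBS1, a thrombospondin (-2.30), fell. At untreated day 10 against day 6, 6 rose and 3 fell, among them CCN2 (2.73), CCN1 (2.20) and SPP1 (2.02) upwards and VWF (-2.14) downwards. Of all genes, 3.73% rose and 2.64% fell there. Between untreated day 10 and day 17, VCAM1 (2.50), L1CAM (2.06) and TNC (1.65) rose and NRG1 (-1.73) fell, among 4 that rose and 1 that fell. Over all genes the shares were 1.45% and 0.536%.

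Of 30 measured adaptors and focal adhesion genes, 5 were higher and 4 lower in untreated day 17 cells than in ES cells. Over all genes 11.7% were higher and 8.47% lower. PARVA, a parvin that joins the integrin-linked kinase complex (2.02), TLN1, a talin (1.16), and TNS3, a tensin (0.98), rose, and FERMT1, a kindlin, fell (58.9 ± 17 and 309 ± 39.0; -2.14). FERMT2, the kindlin of most tissues, rose at day 6 against ES cells (5482 ± 225 and 2607 ± 222; 1.07) and fell at untreated day 10 against day 6 (2257 ± 362 and 5482 ± 225; -1.29). Of 12 measured laminin receptors other than integrins and genes that glycosylate them, 3 rose in untreated day 17 cells against ES cells: SDC3 (2.31) and SDC2 (1.18), which are syndecans, and POMT2 (0.76), an enzyme that adds mannose to dystroglycan. Among all genes 11.7% rose in that comparison. No gene of these 4 lists passed for bFGF against none at either day (limma), while EDIL3 passed for the mean of both days (0.78, adjusted p = 0.0181). Of all genes, 0.0860% passed at day 10, 0.339% at day 17 and 0.329% for the mean.

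**Figure D4:**
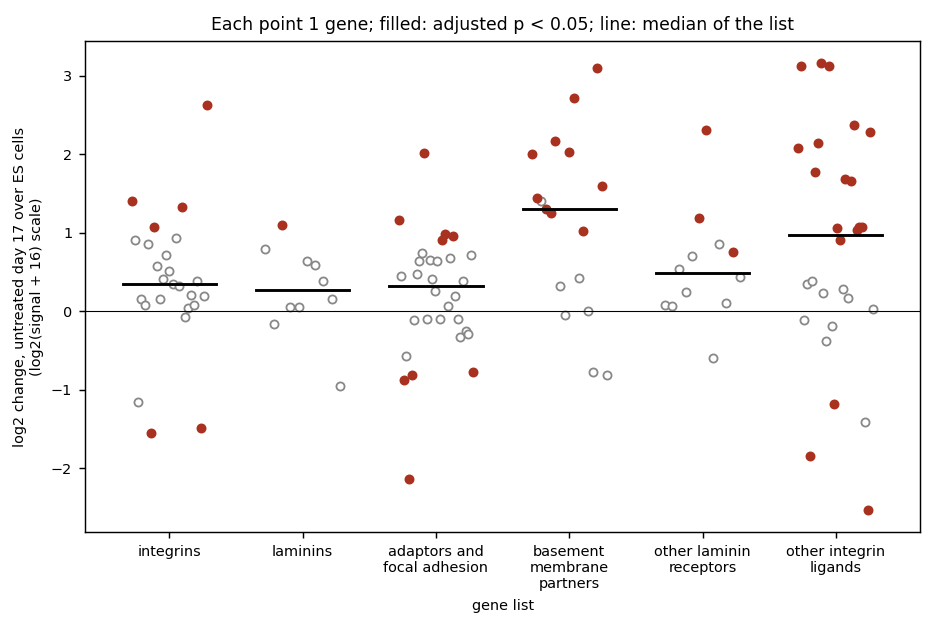
Log2 change in untreated day 17 cells over ES cells for integrins, laminins and 4 lists of partner genes (1 point per gene, log2(signal + 16) scale), with filled points past the test and a line at each list's median. Basement membrane partners lay highest, with 10 of 17 filled above 0 and a median of 1.30, and integrins and laminins had 4 and 1 filled above 0. Of all genes, 11.7% passed above 0.

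Markers of other cell types moved alongside these genes, and their part in the results was not tested. The summed signal of 11 mesenchyme and muscle genes, among them COL1A1, COL3A1, ACTA2 and TAGLN, was 5288 to 6547 in ES cells and 1677 to 1775 at day 6. At day 10 it was 10008 to 11055 with bFGF, against 7555 to 8850.1 without, and at day 17 14127 to 17675 with bFGF, against 14223 to 17770.1 without. The sum was lowest at day 6 and higher in all neuroepithelial groups, as the means of ITGAV and ITGA1 were. Its genes differed in direction at day 6 against ES cells, where 5 of the 11 had a value above 0. There 1 was called higher and 3 lower, against 2.19% and 1.66% of all genes. The sum of 8 surface ectoderm and epithelium genes was 12351 to 14822 in ES cells, 13104 to 13879 at day 6 and 2364 to 6245 in the neuroepithelial groups, low where ITGA6 was low. Its genes differed in direction in untreated day 17 cells against ES cells: CDH1 (218 ± 77.3 and 4015 ± 902) and EPCAM (317 ± 24.3 and 5359.7 ± 647) were lower, KRT5 and TFAP2A were higher, and the other 4 did not pass. KRT5 and KRT14, which define stratified epithelium, lay under the array's median over genes on all 18 arrays (1.09 to 30.5 and 0.801 to 46.6). The sum of 8 primitive and parietal endoderm genes was 1165 to 1888 in untreated day 17 cells, against 216 to 568 in the other neuroepithelial groups together, in the group where ITGB8 was highest and ITGB5 lowest. Of these 8 genes, 4 were called higher and none lower in untreated day 17 cells than in ES cells (11.7% and 8.47% of all genes). AFP lay above the array's median on 12 of the 18 arrays (up to 997) and TTR on 6 (up to 657). GATA6 did so on 6 (up to 130), GATA4 on 4 (up to 126) and SOX7 on 2 (up to 77.1). SOX17, FOXA2 and APOA1 lay under the median on all 18 arrays. The leukocyte list (8 genes) summed to 181 to 481 on all arrays, with PTPRC, which defines leukocytes, at 0.605 to 39.2.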

How the data were processed

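Labelled RNA of 18 pools was read on Affymetrix arrays. The deposited signal intensities are linear and, per the values, had already been scaled by the authors to a common trimmed mean; the software behind them is not given in the sources used here. Of 54675 probe sets, 41097 name 1 gene in the platform annotation, 1801 name several and 11777 none. Each of 19775 genes is read by the probe set with the highest mean, and a probe set prone to cross-hybridisation was used only where a gene had no other. Values were log2(signal + 16). limma 3.58.1 in R 4.3.3 fitted 1 mean per group over all 18 arrays (12 residual degrees of freedom), with Benjamini-Hochberg adjustment over all genes and a threshold of 0.05. The fit was tested on simulated data with 200 changed genes.

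The members and lists were chosen with earlier results of these data known. Values of every array are given for ITGB1, LAMC1 and each member that passed in a planned contrast with a group mean of at least 100, and up to 4 partners are named per list and comparison. Alternatives were other pseudocounts, quantile scaling, a filter on low genes, other variance priors, other uses of probe sets, a replicate block and omission of arrays. Same-numbered pools deviated together between bFGF-treated and untreated cells (correlations of 0.394 to 0.667 at day 10 and 0.318 to 0.653 at day 17) and between untreated day 10 and day 17 (0.365 to 0.621), so these numbers were taken to pair the pools. The main fit, with 1 mean per group, holds no term for the pool. Its p-values therefore leave this pairing out, and the replicate block is the alternative that uses it. ES pool 1 has a number only from sample order, and 1 bFGF-treated day 10 pool is numbered differently in 2 labels. The number of arrays limits the precision.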

Additional observations from a re-analysis of the deposited data

Results flagged for a closer look

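The bFGF effect on ITGA2 ran in opposite directions at the 2 days, with every treated pool above every untreated pool at day 10 (186 ± 9.63 and 93.1 ± 21.1, SD, n = 3 each) and below it at day 17 (118 ± 36.5 and 199 ± 24.4). The difference of the effects, day 17 minus day 10, was -1.62 ± 0.50 on the log2 scale and did not pass in limma (adjusted p = 0.999).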

How the results depend on the processing

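Over the settings other than single omissions, 114 of 142 counts of called genes stayed within 1.5 times the reported count, and 647 of 708 single log2 changes kept direction and call. For day 6 against ES cells (0 reported), 1 gene was called with a pseudocount of 1 or 64, the upper 60% of genes, a trended robust prior or a term for the 4 arrays with raised low signals, and 2 with either replicate block or without those arrays. For untreated day 10 against day 6 (2 reported), 5 were called with either replicate block. For untreated day 17 against day 10 (2 reported), 1 was called with a pseudocount of 1, the mean of probe sets, all probe sets, without the 4 arrays or without pool 2, and 0 with the compared groups alone. For untreated day 17 against ES cells (7 reported), 11 were called with the fixed replicate block and 12 with the random replicate block or the term for the 4 arrays. For bFGF at day 17 (1 reported), 0 were called with the compared groups alone, without the 4 arrays or without pool 2. For the mean bFGF effect (0 reported), 1 was called with a pseudocount of 64, the upper 60% of genes, the trended prior or the random replicate block, and 2 with the fixed replicate block or the term for the 4 arrays. The fixed and random replicate blocks called LAMA1 (adjusted p = 0.0116 and 0.0120) and ITGA11 (0.0396 and 0.0302) at day 6 over ES cells, ITGA1 (0.00319 and 0.00719), ITGA5 (0.0325 and 0.0378) and ITGA11 (0.0492 and 0.0412) at untreated day 10 over day 6, and LAMA1 (0.0167 and 0.0194) and ITGA5 (0.0242 and 0.0282) at untreated day 17 over ES cells, where ITGA11 passed with the random block (0.0452). Same-numbered pools correlated by 0.209 to 0.383, 0.0749 to 0.337 and 0.156 to 0.248 in these 3 comparisons, but the number of ES pool 1 comes from sample order, and 1 day 10 pair lay under 0.1, so the numbers were not taken as pairs there. The replicate block changed no integrin or laminin call for bFGF at day 10 or at day 17. The same held for untreated day 17 against day 10. For the mean bFGF effect the fixed and random blocks called ITGB5 (adjusted p = 0.0227 and 0.0157). The fixed block also called ITGA8 there (0.0487). The cause of these changes was not tested.

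Leaving out single arrays gave 0 to 1 calls for day 6 against ES cells, 2 to 2 for untreated day 10 against day 6, 1 to 2 for untreated day 17 against day 10, 5 to 8 for untreated day 17 against ES cells, 0 to 1 for bFGF at day 17, 4 to 7 for bFGF-treated day 10 against day 6 and 9 to 12 for the F test, and 0 for bFGF at day 10, the difference and mean of the bFGF effects and the bFGF-treated step between day 10 and day 17. Of 990 single changes, 26 lost and 3 gained a call, and 2 uncalled ones changed sign: ITGA6 for bFGF at day 10 (-0.0042 without untreated pool 3, in a range of -0.0042 to 0.5984) and at day 17 (0.0392 without bFGF-treated pool 3, in a range of -0.5845 to 0.0392). Low signals limit the 20 genes with no group mean of 100 or more. Counts over all genes also varied by more than 1.5 times: 549 to 1454 for day 6 against ES cells, 647 to 2512 for untreated day 10 against day 6, 34 to 754 for untreated day 17 against day 10 and 3020 to 5812 for untreated day 17 against ES cells, and at most 38 and 122 for bFGF at day 10 and day 17.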
